A study of Mus musculus with 15 samples.

Results

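The genes of integrins, focal adhesions and costameres were followed in cultured neonatal cardiac myocytes of C57BL/6 mice before and after stretch. Membership was set by gene symbol: integrin alpha and beta subunits, and the named adaptors, kinases and actin linkers of the adhesion plaque together with dystrophin, utrophin, dystroglycan, the sarcoglycans and Lpp. This gave 51 of the 13657 genes in the table. The symbol rule used no value of these genes, but earlier results of these data were known when it was set. Poly(A) RNA came from 15 cultures on elastic silicone (PDMS) membranes, 3 stretch devices for each of 5 groups: a non-stretched control, and static stretch for 30 min or 4 h with its main axis either transverse or longitudinal. The main axis was stretched by 14% and the axis at right angles to it by 3.6%. The series title presents the response as dependent on the axis, so stretch was compared with control, axis with axis and duration with duration. The labels call the 3 devices of a group biological replicates, named A, B and C. The cells were a primary culture and not a sorted population, so markers of other heart cells were read beside the members. In such bulk samples, fewer cells of a type and less RNA per cell cannot be told apart.

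Integrins are receptors of 1 alpha and 1 beta chain that bind matrix proteins such as fibronectin and laminin outside the cell. Inside the cell talin and kindlin bind the beta tail and switch the receptor on, and vinculin, zyxin, tensins and the complex of integrin-linked kinase (ILK), PINCH and parvin connect it to actin. In heart muscle the same proteins sit in costameres, the bands that tie the Z-disc of the outermost myofibrils to the membrane. A second link runs there from actin through dystrophin to dystroglycan and the sarcoglycans, and its loss causes muscular dystrophy with heart disease.

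A set of 3 libraries stood apart most for these genes, and they bear on every comparison below. Among the 44 members that reached 1 FPKM (fragments scaled by transcript length and by the fragments mapped) in at least 3 libraries, the transverse 30 min library B was the highest of its group for 34 members, the longitudinal 30 min library C for 35 and the longitudinal 4 h library C for 32. Over the 12114 genes that passed the same filter these shares were 40.0%, 39.7% and 37.7%, against 77.3%, 79.5% and 72.7% of the members. For 25 of the 44 members (56.8%) the 3 libraries that stood apart were all the highest of their groups, which held for 19.2% of all genes tested. These libraries were picked after the data were seen, so a higher share among members was built into the choice and is no test. The remaining libraries were not alike either. Control A was the highest of its group for 26 members and the transverse 4 h library B for 25. Control B was the lowest of its group for 26 members and the transverse 30 min library C for 28. The longitudinal 4 h library B was the lowest for 27 and the transverse 4 h library C for 25. Controls A and B enter every comparison with control. The 3 libraries that stood apart were also the shallowest by estimate, at 0.671, 0.829 and 0.776 of the depth of the deepest one, and they had the highest summed FPKM. Each depth was the most common ratio among genes of low level, held by 16 of 915, 24 of 913 and 14 of 912 such genes, so it is approximate. Of the smooth muscle and pericyte markers, all 7 were detected, none at 0. Their summed level was 1300 FPKM in the transverse 30 min library B against 421 and 732 FPKM in the rest of its group, 1620 against 803 and 852 FPKM at longitudinal 30 min, and 1580 against 930 and 989 FPKM at longitudinal 4 h. The largest members of this sum were Acta2, Tagln and Cnn1, with control means of 350, 207 and 78.8 FPKM. Over all 15 libraries Pdgfrb ranged from 32.2 to 39.8 FPKM, Cspg4 from 9.45 to 41.2 FPKM, Rgs5 from 2.27 to 5.94 FPKM and Myh11 from 0.294 to 1.9 FPKM. The summed myocyte markers were also highest of their groups in the 3 libraries that stood apart, at 22800 against 16800 and 19000 FPKM, 23300 against 18400 and 18800 FPKM, and 21200 against 16900 and 20100 FPKM. The summed fibroblast markers were lowest of the group in the transverse 30 min library B (2010 FPKM) and the longitudinal 4 h library C (2310 FPKM), and between the others in the longitudinal 30 min library C (2240 FPKM); the median fibroblast marker differed from its group mean by -0.23, -0.16 and -0.14 in them on the log2(FPKM + 1) scale. Whether depth or these markers had a part in the members' levels was not tested.

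The members differed in how far these 3 libraries raised them. Lims2, which codes for PINCH2, lay highest, at a mean of 0.997 above its group means on the log2(FPKM + 1) scale. Next came the fibronectin receptor chain Itga5 at 0.65, Itga9 at 0.61, the collagen receptor chain Itga1 at 0.60, Tln1 at 0.54, the laminin receptor chain Itga7 at 0.52, Ilk at 0.51, Zyx at 0.51 and Vcl at 0.42. The heat map is ordered by this difference, so the integrin chains and plaque genes of its upper rows share these high libraries by construction. Correlation between members was not tested. The means of Tln2 (0.011), Sgcb (0.016) and Dmd (0.031) in these 3 libraries lay near their group means. Dmd still varied in other libraries (pooled SD within groups 0.164).

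**Figure D1:**
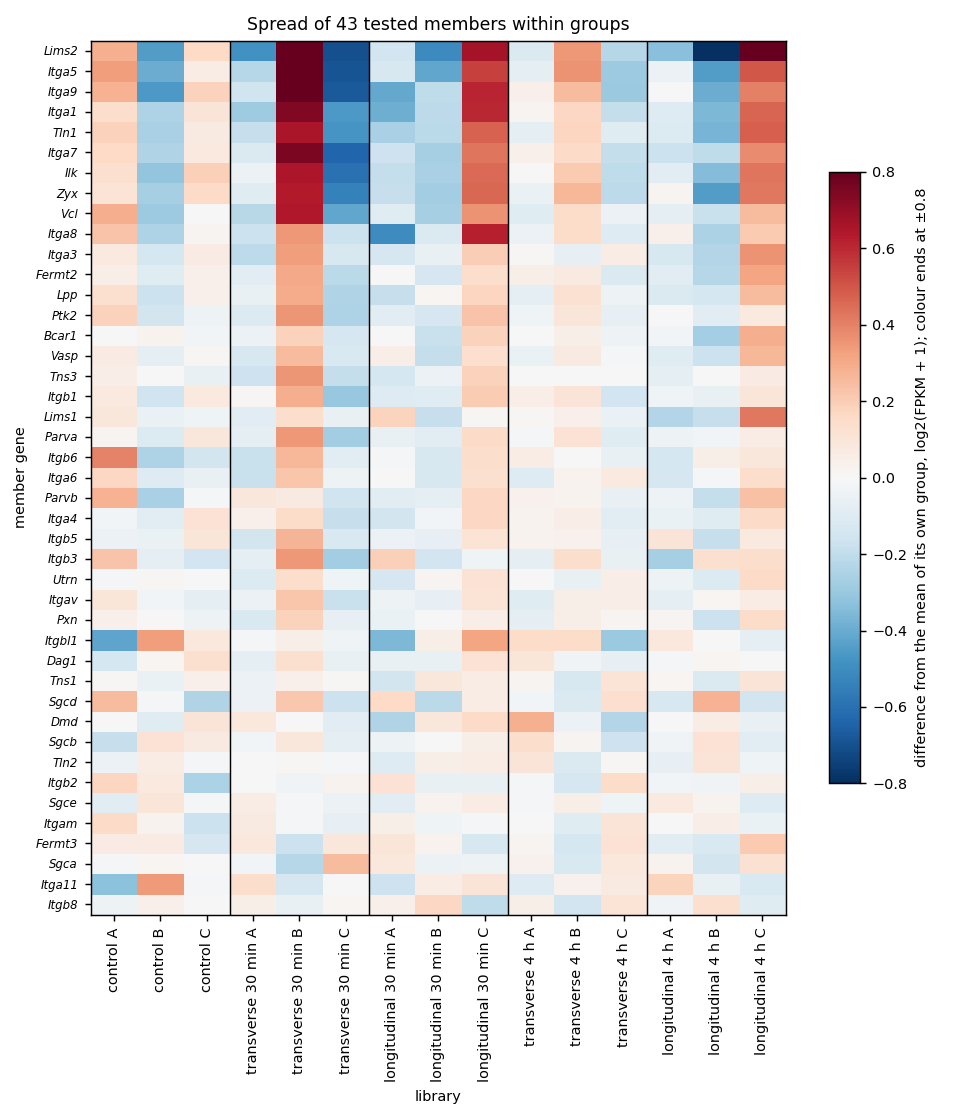
Heat map of 43 tested members (lines) in 15 libraries (columns), coloured by the difference of each value from the mean of its own group on the log2(FPKM + 1) scale, with members ordered by their mean difference in the 3 libraries that stood apart. Red columns mark the transverse 30 min library B, the longitudinal 30 min library C and the longitudinal 4 h library C, most strongly for Lims2 (mean 0.997) and Itga5 (0.65).

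In unstretched cells the members spanned from Itgb1, the common beta chain of the matrix integrins, at 243 ± 22.4 FPKM (SD, n = 3) to the collagen receptor chain Itga2 at 0.331 ± 0.0973 FPKM. FPKM is scaled by transcript length, so levels can be set side by side between genes. The median member stood at 12.2 FPKM against 7.72 FPKM for all genes in the table, and 33 of the 51 lay above the latter. Of the members 11 reached 50 FPKM, 18 lay between 10 and 50, 15 between 1 and 10, and 7 below 1.

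Itgb1 was followed among the beta chains by Itgb5, a partner of the alpha v chain, at 101 ± 6.13 FPKM. The 5 beta chains below them were under 6 FPKM: Itgb2, the beta chain of leukocyte integrins, at 5.92, Itgb3 at 5.03, Itgb8 at 1.43, Itgb6 at 1.20 and Itgb4 at 0.382 FPKM. Of the 16 alpha chains Itga5 was the highest at 50.5 ± 12.7 FPKM, with Itga9 at 33.9, Itga7 at 27.7 and Itgav at 17.0 FPKM. The ranges of Itga5 and Itga9 over the control libraries overlapped, as did those of Itga9 and Itga7. Within each control library the order was nevertheless Itga5, Itga9, Itga7. A further 5 alpha chains did not pass the filter for testing, namely Itga2, Itga10, the leukocyte chains Itgal and Itgax and the platelet chain Itga2b, and Itgb4 and Parvg did not either. Itgbl1, which the symbol rule also takes in, codes for a secreted protein that resembles part of a beta chain and is no receptor subunit; it stood at 7.59 ± 2.18 FPKM.

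Among the cytoplasmic genes, Ilk stood at 130 ± 23.6 FPKM, with its partners Lims1 (PINCH1) at 39.1, Parva at 36.4 and Parvb at 33.7 FPKM. Fermt2, the kindlin of muscle and many other tissues, was at 67.8 ± 3.82 FPKM and Fermt3, the kindlin of blood cells, at 3.71 ± 0.365 FPKM. Tln1 exceeded Tln2, the talin enriched in striated muscle, at 33.9 ± 5.36 against 11 ± 0.443 FPKM. Tns1 (103 FPKM), Zyx (77.2 FPKM) and Vcl (54.4 FPKM) led the actin-linking genes, and Lpp, a relative of zyxin, was lowest at 9.14 FPKM. Dag1, which codes for both dystroglycan chains, led the dystrophin complex at 139 ± 13.0 FPKM, with the sarcoglycan Sgca at 55.3 FPKM, Dmd at 13.1 and its homologue Utrn at 9.06 FPKM.

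**Figure D2:**
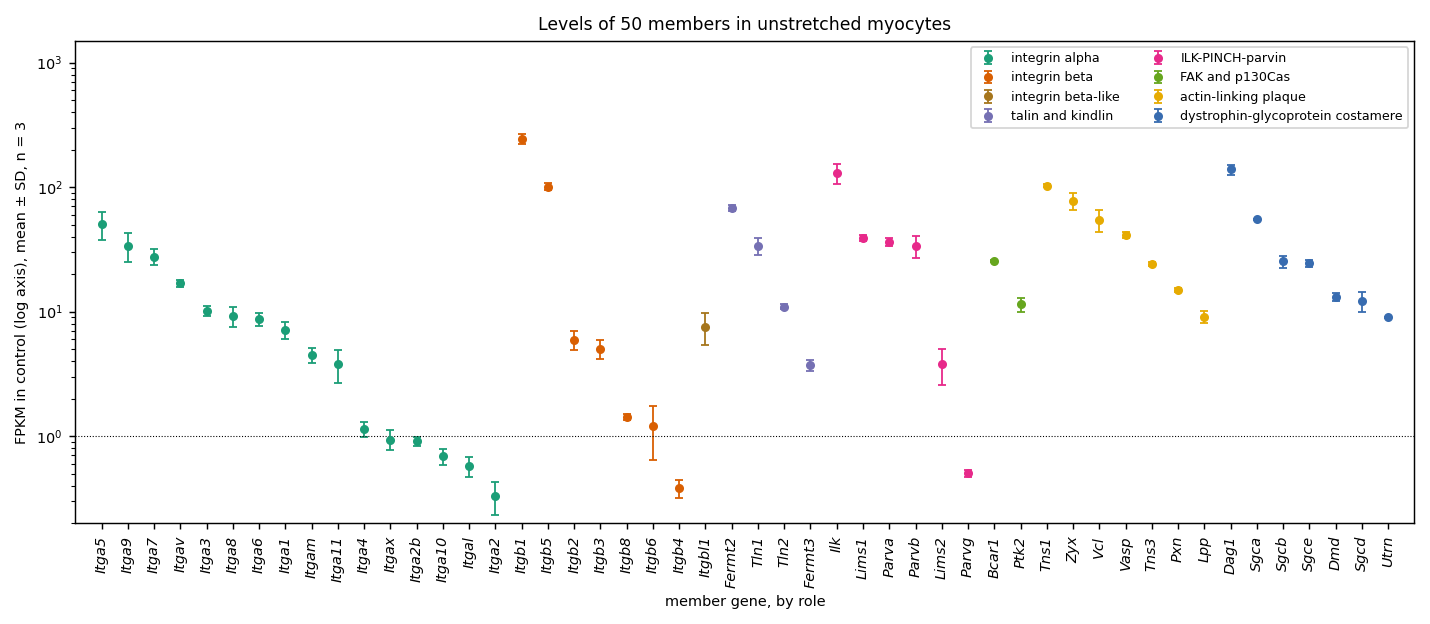
Mean FPKM ± SD of 50 members in the 3 control libraries (log axis), ordered within 8 role groups; the dotted line marks 1 FPKM. Itgb1 is highest at 243 FPKM and 7 members lie below 1 FPKM.

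Longitudinal stretch for 4 h was the comparison with control in which members passed the test, and the vinculin gene had the largest fold change of those called. Vcl (chr14:21748655-21852895 in mm9), which codes for the actin-binding protein that reinforces loaded adhesions, measured 65.9, 43.8 and 53.6 FPKM in control libraries A, B and C and 99.8, 92.9 and 126 FPKM after longitudinal stretch. All 3 stretched libraries lay above all 3 controls. The means were 54.4 ± 11.1 and 106 ± 17.3 FPKM (n = 3 each), a log2 fold change of 0.96 ± 0.25 (SE; adjusted p = 0.0217).

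Of the 44 tested members, 5 were called at an adjusted p under 0.05 (11.4%), against 20.7% of all 12114 genes tested, so the share of members called was not above that of all genes. The 4 that rose were Vcl, Lims1, Fermt2 and Itgav, and the 1 that fell was Tln2. Without adjustment 16 members had p under 0.05. The 3 stretched libraries lay above all 3 controls for 15 members, beside 20.9% of all genes, and below them for 4, beside 21.5% of all genes. The log2 fold change was positive for 35 members and negative for 9, with a median of 0.20, where the median of all genes tested was -0.01.

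The ILK partner Lims1 (chr10:57786214-57887439) rose from 41.6, 37.5 and 38.1 FPKM to 50.7, 52.6 and 80.4 FPKM. The groups did not overlap, and library C stood well above the other two stretched libraries. Its log2 fold change was 0.61 ± 0.15 (adjusted p = 0.0156). Ilk itself measured 140, 103 and 146 FPKM in control and 168, 139 and 239 FPKM after stretch. These groups overlapped, since the stretched library B lay below 2 of the controls. Its log2 fold change of 0.47 ± 0.30 was not called (adjusted p = 0.273) and was 0.25 without longitudinal 4 h C; not called either were Parva at 0.17, Parvb at -0.05 and Lims2 at 1.30 ± 0.56, whose 3 stretched libraries were spread from 5.59 to 24.4 FPKM.

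Fermt2 (chr14:46078467-46149740), which codes for kindlin-2, rose from 70.2, 63.4 and 69.8 FPKM to 89.6, 81.0 and 119 FPKM with no overlap (log2 fold change 0.48 ± 0.15, adjusted p = 0.0362). Tln2 (chr9:67064892-67407510), one of the pair of talin genes, moved the other way, from 10.6, 11.4 and 10.9 FPKM to 8.05, 9.13 and 8.22 FPKM. Every stretched library was below every control, and the libraries of each group were close together. The log2 fold change was -0.34 ± 0.07 (adjusted p = 0.00839), the smallest p among the members. Its homologue Tln1 measured 0.45 ± 0.29 on the same scale and was not called (adjusted p = 0.281), and Fermt3 measured -0.07.

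All 11 tested alpha chains had positive log2 fold changes, from 0.07 to 1.17, and 1 of them passed the test. This was Itgav (chr2:83564554-83647073), the alpha chain of vitronectin receptors, which rose from 18.2, 16.7 and 16.1 FPKM to 21.7, 23.1 and 23.9 FPKM (log2 fold change 0.41 ± 0.09, adjusted p = 0.0123). The groups did not overlap and the stretched libraries lay close to each other. Itga5 had the largest alpha chain difference, from 62.6, 37.3 and 51.6 FPKM to 109, 82.2 and 159 FPKM. The groups were again apart, the spread within each was wide, and the log2 fold change of 1.17 ± 0.40 was not called (adjusted p = 0.0539). Its SE was pooled over all 5 groups, including transverse 30 min, where Itga5 measured 67.6 ± 41.5 FPKM. Itga5 was called when transverse 30 min B, transverse 30 min C or longitudinal 4 h B was left out. The muscle laminin receptor chain Itga7 also lay above control in every stretched library, at 0.55 ± 0.30 (adjusted p = 0.203). The remaining 8 alpha chains overlapped between groups. Among them Itga6, another laminin receptor chain, measured 0.29 ± 0.11 (adjusted p = 0.0769), Itga8 0.46 ± 0.24, Itga1 0.43 ± 0.33 and Itga9 0.39 ± 0.38, and Itga3, Itga4, Itga11 and the leukocyte chain Itgam lay between 0.07 and 0.19.

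None of the 6 tested beta chains passed limma's test in the fit of all 15 libraries, and 2 had an unadjusted p under 0.05. Itgb1 measured 257, 217 and 256 FPKM in control and 312, 307 and 343 FPKM after stretch. All 3 stretched libraries were higher, with a log2 fold change of 0.40 ± 0.14 (adjusted p = 0.0546). Itgb3 measured 0.45 ± 0.16 (adjusted p = 0.0664), Itgb5 -0.08, Itgb6 0.14, Itgb8 0.09 and Itgb2 0.09. Itgbl1 measured 5.27, 9.59 and 7.92 FPKM in control and 10.3, 9.63 and 9.05 FPKM after stretch, an overlap, with a log2 fold change of 0.34 ± 0.19 (adjusted p = 0.215).

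Zyx (chr6:42299827-42308394) codes for zyxin, a LIM protein that moves to actin fibres under strain. It measured 82.7, 63.6 and 85.2 FPKM in control, 85.9, 143 and 62.9 FPKM at transverse 30 min and 89.0, 83.3 and 139 FPKM at longitudinal 30 min. After 4 h it measured 82.7, 103 and 74.3 FPKM with transverse and 120, 86.3 and 158 FPKM with longitudinal stretch. The 3 libraries that stood apart held the 3 highest values, and the longitudinal 4 h group lay above control by a narrow margin at its library B. Its log2 fold change at longitudinal 4 h was 0.62 ± 0.30 (95% interval -0.03 to 1.26, adjusted p = 0.151) and 0.40 ± 0.20 without those 3 libraries (adjusted p = 0.176).

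The other actin linkers were Vasp at 0.32 ± 0.13, Tns3 at 0.28 ± 0.12, Lpp at 0.31 ± 0.15, Pxn at 0.07 and Tns1 at -0.20 ± 0.08 (log2 fold changes, none called, adjusted p from 0.0869 upwards). Tns1, the most abundant of them, measured 104, 99.0 and 106 FPKM in control and 90.4, 82.5 and 95.9 FPKM after stretch. The kinase gene Ptk2, which codes for focal adhesion kinase, measured 0.40 ± 0.14 (adjusted p = 0.0645) and was not called, nor was the p130Cas scaffold gene Bcar1 at 0.20 ± 0.13, which was 0.058 when library C of longitudinal 4 h was left out and 0.34 when library B was.

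The dystrophin side showed no called member among 8 by limma in the fit of all 15 libraries, and 2 with an unadjusted p under 0.05. These were Dmd at -0.37 ± 0.13 (adjusted p = 0.0546) and Sgca at -0.28 ± 0.11 (adjusted p = 0.075). In both, all 3 stretched libraries lay below the controls. Dag1 measured 126, 140 and 152 FPKM in control and 147, 150 and 149 FPKM after stretch, within the range of the controls. Sgcb, Sgcd, Sgce and Utrn lay between -0.09 and 0.07, none called. The median log2 fold change of the 8 genes was 0.00, against 0.31 for the 7 actin-linking genes and 0.39 for the 11 alpha chains.

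**Figure D3:**
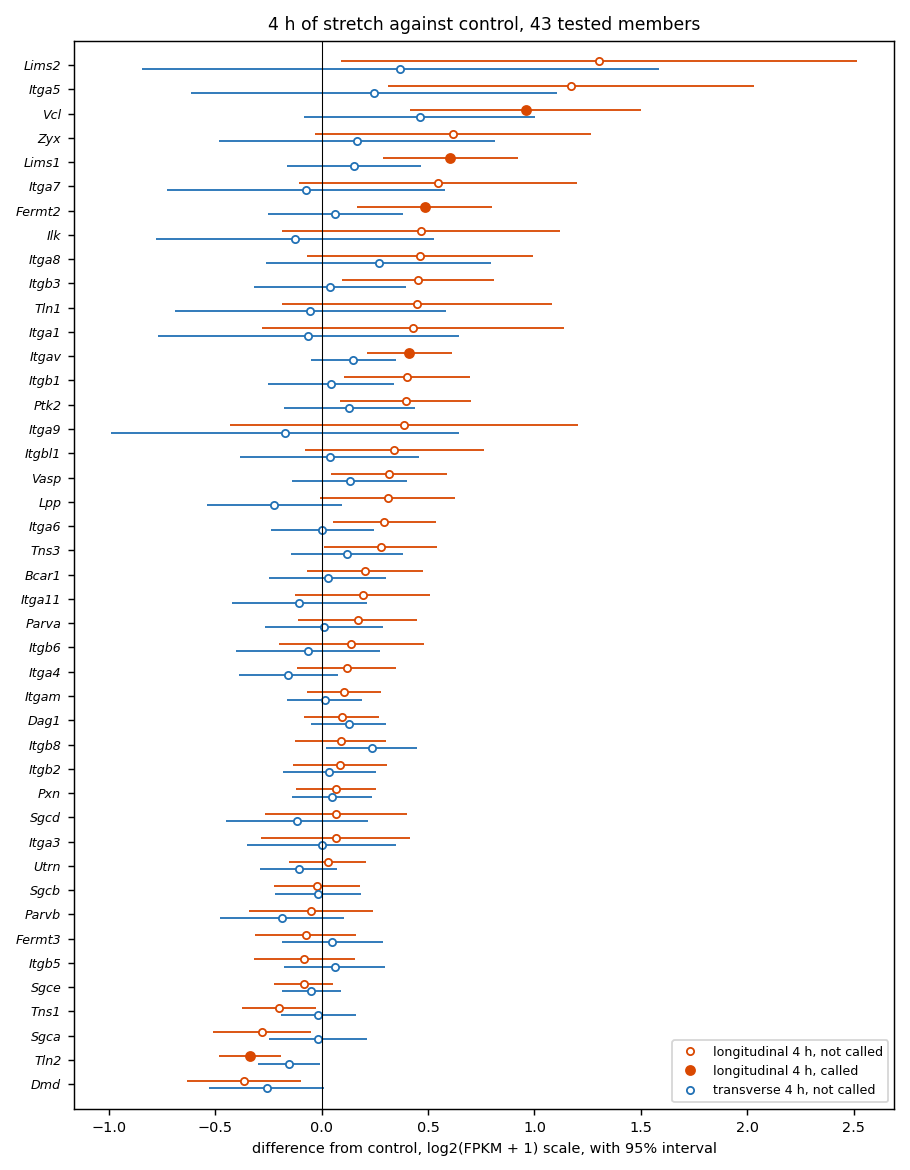
Difference from control on the log2(FPKM + 1) scale, with 95% intervals, for 43 tested members after 4 h of longitudinal (orange) or transverse (blue) stretch; filled points were called. The 5 filled points are Vcl, Lims1, Fermt2, Itgav and Tln2, all longitudinal, and Itga5 at 1.17 has an interval from 0.31 to 2.03.

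These calls depended on which libraries entered. Tln2 and Itgav were called in 15 of 15 fits that left out 1 library each. Lims1 lost its call without control B or C (highest adjusted p 0.0605), Vcl without control B, control C or the longitudinal 4 h library C (highest 0.0885), and Fermt2 without any 1 of the controls or without longitudinal 4 h A or C (highest 0.142). Without all 3 libraries that stood apart the 5 calls were kept and Itga5, Ptk2, Sgca and Tns3 were added, 9 in all. Itga5 then measured 0.93 ± 0.25 (adjusted p = 0.0364) and Vcl 0.83 ± 0.15 (adjusted p = 0.0106), while Lims1 went down from 0.61 to 0.40 ± 0.09 and Fermt2 from 0.48 to 0.33 ± 0.08. With only the control and longitudinal 4 h libraries in the fit, Lims1 and Fermt2 were not called (adjusted p = 0.0544 and 0.0517). In that fit Itga5, Itgb1, Ptk2 and Tns3 were called as higher and Dmd as lower, with 8 calls in all.

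**Figure D4:**
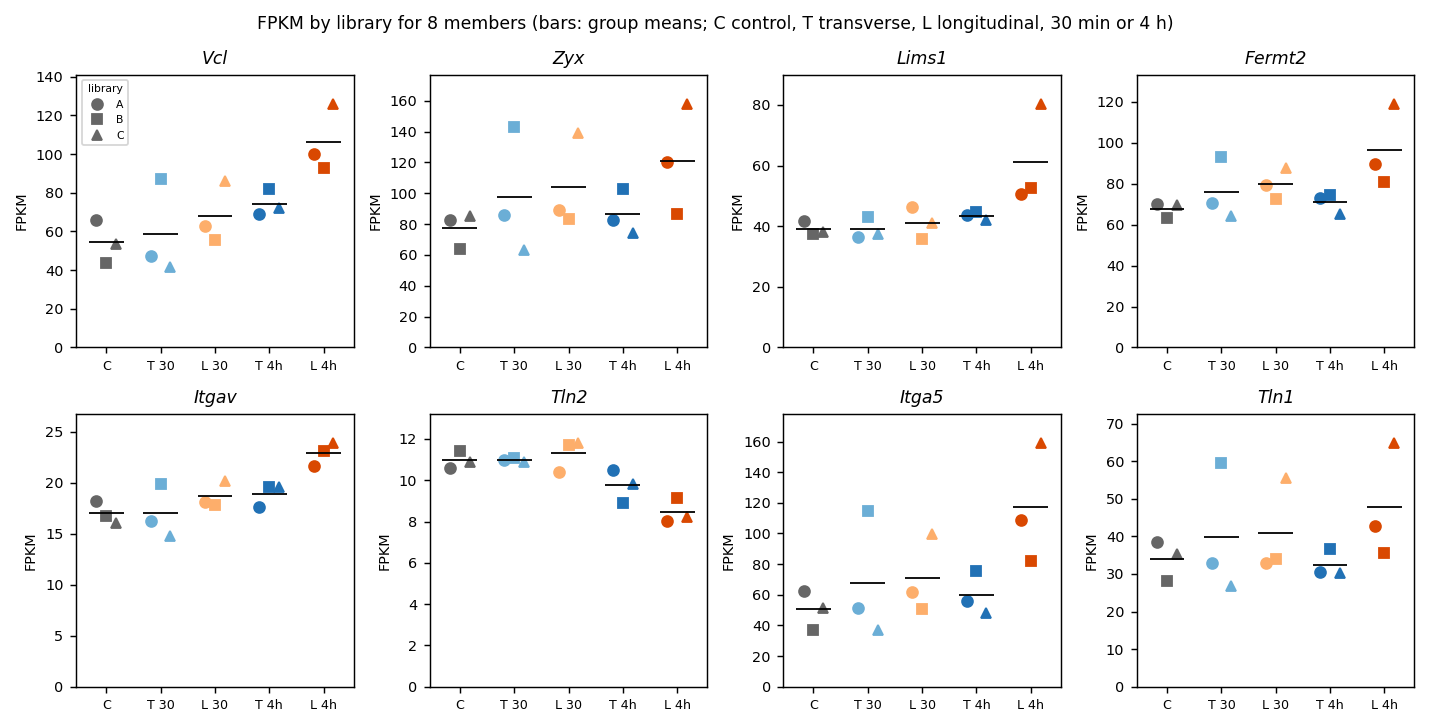
FPKM in each of the 15 libraries for 8 members, with symbols for libraries A, B and C and a bar at each group mean. The group means of Vcl, Lims1, Fermt2, Itgav, Itga5, Zyx and Tln1 are highest after 4 h of longitudinal stretch, and that of Tln2 is lowest there. For Zyx and Tln1 the 3 libraries that stood apart hold the 3 highest values. Vcl, Fermt2, Itgav and Itga5 are also highest of their groups in these libraries.

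The promoter windows of Vcl and Fermt2, the called members with an entry in the RefSeq table (GRCm38.p6, 250 bases before to 50 after the start), are shown because both hold a CArG box, the site bound by serum response factor. Zyx is shown as the second marker gene of adhesions. Capitals mark the CArG box (Vcl, Fermt2), the TEAD core GGAATG (Vcl) and the AP-1 site TGANTCA (Zyx), read on both strands.
Vcl, chr14:20929148-20929447, plus strand: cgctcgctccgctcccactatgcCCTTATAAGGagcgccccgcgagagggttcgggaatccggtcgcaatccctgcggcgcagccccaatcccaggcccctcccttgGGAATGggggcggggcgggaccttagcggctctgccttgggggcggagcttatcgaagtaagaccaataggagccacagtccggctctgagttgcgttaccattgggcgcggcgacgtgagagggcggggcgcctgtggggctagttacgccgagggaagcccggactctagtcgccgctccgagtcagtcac
Fermt2, chr14:45530016-45530315, minus strand: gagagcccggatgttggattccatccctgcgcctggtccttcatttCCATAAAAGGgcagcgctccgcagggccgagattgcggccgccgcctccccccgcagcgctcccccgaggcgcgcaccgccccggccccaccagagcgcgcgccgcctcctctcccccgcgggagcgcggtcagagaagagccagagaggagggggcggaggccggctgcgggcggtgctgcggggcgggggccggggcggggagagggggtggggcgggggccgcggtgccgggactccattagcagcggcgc
Zyx, chr6:42349578-42349877, plus strand: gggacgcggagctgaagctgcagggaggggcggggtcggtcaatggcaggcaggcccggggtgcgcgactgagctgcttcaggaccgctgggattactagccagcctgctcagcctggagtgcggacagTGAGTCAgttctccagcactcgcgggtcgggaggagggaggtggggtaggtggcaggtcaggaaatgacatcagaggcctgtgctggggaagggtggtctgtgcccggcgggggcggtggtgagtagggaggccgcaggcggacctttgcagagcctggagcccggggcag
The CArG boxes begin at position -227 in Vcl and -204 in Fermt2, counted from the start site, and the TEAD core of Vcl at -143 does not overlap its CArG box. The table held 48 windows for 38 of the members. A CArG box was found in 4 of the 48, those of Vcl, Fermt2, Dmd and Itgb6, and in 1.63% of the 32851 windows of all genes. The TEAD core was in 5 of the 48 against 14.7% of all windows, and the AP-1 site in 5 of the 48 against 7.81%. Dmd and Itgb6 were not called. A match says only that these letters stand in the window.

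After 4 h of transverse stretch no member was called by limma, where 0.0578% of all genes were, and 3 members had an unadjusted p under 0.05. Vcl measured 69.2, 82.1 and 71.9 FPKM, each above the highest control at 65.9 FPKM. Its log2 fold change was 0.46 ± 0.25 (95% interval -0.083 to 1.003, adjusted p = 0.549). Without the 3 libraries that stood apart, none of them in these groups, it was 0.46 ± 0.13 and again not called (adjusted p = 0.23). Itgb8, whose protein pairs with the alpha v chain, had the smallest p, at 1.36, 1.5 and 1.43 FPKM in control and 1.95, 1.57 and 2.08 FPKM after stretch, without overlap (0.24 ± 0.10, adjusted p = 0.439). Tln2 followed at 10.5, 8.92 and 9.82 FPKM, all below the controls (-0.16 ± 0.07, adjusted p = 0.453). The stretched libraries lay above all controls for 6 members, beside 10.9% of all genes, and below them for 3, beside 9.65%. The median log2 fold change of the members was 0.02, against 0.01 over all genes tested.

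Set directly against each other at 4 h, the axes gave no called member by limma, and 12 members with an unadjusted p under 0.05; 0.0165% of all genes were called. Lpp, which had the smallest p, measured 10.6, 10.4 and 13.9 FPKM with longitudinal and 7.19, 8.41 and 7.43 FPKM with transverse stretch. The axes did not overlap, with a log2 difference of 0.53 ± 0.15 (adjusted p = 0.109). Lims1, at 43.8, 44.7 and 41.9 FPKM with transverse stretch, was likewise lower there in every library (0.45 ± 0.15, adjusted p = 0.118). Vcl differed by 0.50 between the axes, with a 95% interval from -0.05 to 1.04 (adjusted p = 0.222), and Itga5 by 0.93, with an interval from 0.07 to 1.79 (adjusted p = 0.174). Without the 3 libraries that stood apart the Vcl difference was 0.37 ± 0.15 (adjusted p = 0.202). All longitudinal libraries exceeded all transverse libraries for 18 members, beside 16.5% of all genes, and were below them for 1, Sgca, beside 19.0%. The difference was positive for all 11 alpha chains tested, from 0.07 to 0.93, and for all 5 tested genes of the ILK complex, from 0.14 to 0.93. So a call for longitudinal and none for transverse stretch was not in itself a difference between the axes for any member.

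At 30 min limma called no member in either axis. For transverse 30 min against control 0.314% of all genes were called and 0 members had an unadjusted p under 0.05; for longitudinal 30 min 0.446% were called and 1 member, the sarcoglycan gene Sgcd, was under 0.05 unadjusted. Sgcd measured 14.6, 12 and 10.1 FPKM in control and 17.6, 13.3 and 16.3 FPKM after longitudinal stretch, an overlap of the groups (0.35 ± 0.15, adjusted p = 0.553). Sgca, next in order, measured 54.7, 55.9 and 55.2 FPKM in control and 50.7, 46.1 and 46.4 FPKM after stretch, all lower (-0.21 ± 0.11, adjusted p = 0.586). In the transverse group Bcar1 had the smallest p, with 25.4, 26.0 and 25.1 FPKM in control and 29.8, 35.1 and 28.0 FPKM after stretch. Its groups did not overlap, and its log2 difference was 0.26 ± 0.13 (95% interval -0.01 to 0.54). Itgb2 was next, at 6.74, 6.26 and 4.76 FPKM in control and 5.06, 4.91 and 5.14 FPKM after stretch, an overlap through control C (-0.19 ± 0.10).

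Between the axes at 30 min limma called no member and none had an unadjusted p under 0.05, with 0.0248% of all genes called. Tns1 had the smallest p, at 83.4, 98.6 and 96.7 FPKM with longitudinal and 100, 107 and 104 FPKM with transverse stretch, lower in every longitudinal library (-0.16 ± 0.08, adjusted p = 0.804). Sgca followed at -0.19 ± 0.11 (adjusted p = 0.804).

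Between 30 min and 4 h of longitudinal stretch 1 of the 44 members was called, Tln2, against 4.98% of all genes. It measured 10.4, 11.7 and 11.8 FPKM at 30 min and 8.05, 9.13 and 8.22 FPKM at 4 h. Every 4 h library was lower, with a log2 difference of -0.38 ± 0.07 (adjusted p = 0.0143). The call was lost without longitudinal 30 min B or C or longitudinal 4 h A or C (highest adjusted p 0.059), and without the 3 libraries that stood apart (-0.33 ± 0.09, adjusted p = 0.0896). Lims1 was next at 0.54 ± 0.15 (adjusted p = 0.0523).

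Between the transverse durations limma called no member, and 4 had an unadjusted p under 0.05, with 0.338% of all genes called. Itgb8 measured 1.39, 1.23 and 1.34 FPKM at 30 min against the 1.57 to 2.08 FPKM given above for 4 h, without overlap (0.30 ± 0.10, adjusted p = 0.277). The interaction of axis and duration, which asks whether the change from 30 min to 4 h differed between axes, gave no called member by limma and 3 with an unadjusted p under 0.05, with 0.0248% of all genes called. The smallest p values belonged to Lpp at 0.48 ± 0.21 and Tln2 at -0.22 ± 0.10, both with an adjusted p of 0.833.

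The adhesion genes outside the symbol rule were read in 4 lists for longitudinal 4 h against control. Of 30 adhesion signalling genes, 10 rose and 2 fell, where 20.7% of all genes tested were called. Rock2, a kinase of the RhoA pathway that raises contractility, went from 25.0 ± 0.905 to 35.1 ± 2.94 FPKM (0.47 ± 0.07, adjusted p = 0.00438). Rap1b, a small GTPase that recruits talin to integrins, went from 52.1 ± 4.95 to 75.6 ± 5.14 FPKM (0.53 ± 0.10, adjusted p = 0.00729), and the phosphatase gene Ptpn12 from 14.8 ± 0.795 to 18.9 ± 1.44 FPKM (0.33 ± 0.06, adjusted p = 0.00744). These 3 were called in 15 of 15 fits without 1 library. Without the 3 libraries that stood apart 9 of the list rose and 0 fell, and Crkl, Dock1, Rac1 and Fyn were no longer called. In the other comparisons with control none of this list was called; between 30 min and 4 h of longitudinal stretch Rock2 and Yes1, a Src-family kinase gene, rose, with the call kept in 12 and 4 of 15 fits; without the 3 libraries Yes1 was not called (adjusted p = 0.0927).

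Among 19 adaptors and actin linkers measured, 2 rose, among them Nexn (nexilin, an F-actin binding protein of the Z-disc) at 0.56 ± 0.14 (adjusted p = 0.0163). This share was below the 20.7% called among all genes. The number called ranged from 0 to 8 when single libraries were left out; Nexn lost its call without control B or longitudinal 4 h A. Of 14 further genes of the dystrophin complex and of dystroglycan glycosylation, Cav3, the caveolin of muscle, rose from 146 ± 2.54 to 230 ± 32.8 FPKM (0.64 ± 0.11, adjusted p = 0.00592), while Pomt1 and Pomt2, which add the first mannose to dystroglycan, fell by 0.29 and 0.21 on the log2 scale (adjusted p = 0.0119 and 0.0219). Pomt1 lost its call without control B (adjusted p = 0.0524), and Pomt2 without control B or C or longitudinal 4 h A or C, and without the 3 libraries that stood apart (adjusted p = 0.066). Both were also lower at 4 h than at 30 min of longitudinal stretch (adjusted p = 0.0122 and 0.049, called in 14 and 3 of 15 fits, and neither without the 3 libraries, at 0.0706 and 0.13), and Pomt1 between the transverse durations (adjusted p = 0.044, called in 2 of 15 fits, and 0.124 without the 3 libraries). Of 19 matrix ligands 1 rose, also a share below 20.7%. This was Thbs1, which codes for thrombospondin-1, a ligand of several integrins, from 159 ± 19.6 to 409 ± 59.6 FPKM (1.35 ± 0.20, adjusted p = 0.00438). Thbs1 was also the 1 gene of the 4 lists called at longitudinal 30 min, at 384 ± 73.0 FPKM (1.25 ± 0.20, adjusted p = 0.0133). It lost that call without control B or longitudinal 30 min C.

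Markers of the cell types a heart culture can hold were read beside these results. The 10 myocyte markers in the table summed to between 16800 and 23300 FPKM per library, and none was called at longitudinal 4 h against control by limma. Fibroblast markers summed to 2010 to 2710 FPKM, leukocyte and macrophage markers to 353 to 531 FPKM, endothelial markers to 18.8 to 41.9 FPKM and platelet markers to 9.30 to 14.9 FPKM. None of the 8 fibroblast, 8 leukocyte, 7 smooth muscle and 1 tested platelet markers was called there, and 1 of 6 endothelial markers was, Tek, which fell from 2.74 to 1.80 FPKM (adjusted p = 0.0438) and was called in 4 of 15 fits without 1 library. The summed smooth muscle and pericyte markers were 495 to 822 FPKM in control and 930 to 1580 FPKM after 4 h of longitudinal stretch, without overlap, with a median log2 fold change of 0.51. Their largest members were Acta2 (350 ± 121 and 654 ± 237 FPKM) and Tagln (207 ± 37.6 and 336 ± 56.4 FPKM). Rgs5 went the other way (means of 3.76 and 2.94 FPKM), and Pdgfrb changed little (35.8 and 37.2 FPKM). The part of these markers in the members' differences was not tested.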

How the data were processed

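Expression was measured by poly(A) RNA sequencing (TruSeq, HiSeq, per the labels' protocols) in 15 libraries, 3 per group. The authors deposited 1 table of 13657 genes, whose values per library were taken as FPKM because the submitters' processing notes name Cufflinks 2.0.2 and the headers name no unit. Those notes also list TopHat 1.4.1, FastQC and mm9 without roles. FPKM carry no read counts, so absolute depth is unknown. Relative depth, from the steps between low values, ran from 0.671 to 1. The kit does not mark strand, so genes that overlap on either strand can share reads. Starts in the table count from 0, so 1 was added. Promoters are from RefSeq (GRCm38.p6) and were never mixed with mm9 positions.

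Tests used limma 3.58.1 in R 4.3.3 (trend and robust) on log2(FPKM + 1), for the 12114 genes that reached 1 FPKM in 3 or more libraries. A single fit held the 15 libraries as 5 group means (10 residual degrees of freedom). In each of 9 comparisons the two-sided p-values took Benjamini-Hochberg adjustment across those genes, and under 0.05 counted as called. Changes of low genes are understated on this scale. The fit was tested on simulated data. Alternatives were a pseudocount of 0.1, no filter, a filter of 5 FPKM, quantile normalization, median centring, no robust option, only the groups compared, a replicate block, each library left out, and, chosen after seeing the data, 3 libraries left out together. Members and lists were chosen with earlier results of these data known. Values by library are given for Vcl and Zyx, for called members (or the 2 of smallest p where none was called) and for the most abundant member of each role. Tln1, Itga7, Itga9, Itga1, Itgb3, Lims2, Dmd, Ptk2 and the promoter genes were singled out after their values were seen. Some genes that this rule gives are not reported here; counts include them.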

Additional observations from a re-analysis of the deposited data

Results flagged for a closer look

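In the fit of all 15 libraries Tln2 fell between 30 min and 4 h of longitudinal stretch by a log2 difference of -0.381 (adjusted p = 0.0143). It was lower in 3 of 3 libraries than in every 30 min library. At longitudinal 30 min Tln2 measured 11.3 ± 0.769 FPKM, beside 11 ± 0.443 FPKM in control and 8.47 ± 0.583 FPKM at longitudinal 4 h. The call was lost without longitudinal 30 min B or C and without longitudinal 4 h A or C.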

How the results depend on the processing

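For longitudinal 4 h against control the 5 called members became 8 with quantile normalization, 8 with only the groups compared (3 of the 5 kept, Vcl, Itgav and Tln2) and 9 without the 3 libraries that stood apart; leaving out 1 library gave 2 (control B or C) to 13 (transverse 30 min B), with 3 without longitudinal 4 h C and 10 without transverse 30 min C. For longitudinal 4 h against 30 min the 1 called member became 2 with quantile normalization, 3 with median centring, 0 with only the groups compared and 0 without the 3 libraries; leaving out 1 library gave 0 to 4 (4 without transverse 30 min B). The 7 other comparisons kept 0 called members under every alternative run. Over all genes, longitudinal 4 h against control fell from 2503 calls to 792 without control B and 1034 without control C. Among the uncalled members given by library, directions turned for 3 at longitudinal 4 h. Dag1 measured -0.081 with quantile normalization. Itgb2 measured -0.041 without control C (leave-out range -0.041 to 0.173). Sgcd measured -0.054 without control C and -0.072 without longitudinal 4 h B (range -0.072 to 0.194). Other members with differences near 0 turned too, among them Itga3 (0.065) and Utrn (0.028) without longitudinal 4 h C. The causes were not tested. The replicate letters are not stated to pair the devices. Deviations of same-letter libraries correlated from -0.50 to 0.51 over 30 pairs of libraries (median -0.000217). Those of different letters correlated from -0.48 to 0.58 over 60 pairs (median 0.0146). A fit with the replicate block called 4 members at longitudinal 4 h against control and 1 against 30 min, all among those called without it. Depth is known only in relative terms. With 3 libraries a group, the wide spread of genes such as Itga5, pooled over all 5 groups, limits what can be called.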
